A study of Homo sapiens with 6 samples.

Results

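The endoplasmic reticulum (ER) folding, secretion and unfolded protein response genes are 42 genes that build, export or clear secreted proteins or sense their misfolding. They were chosen by symbol, all 42 were found among the 78648 genes of the tables, and 41 passed the filter on low counts. The cells were THP-1, an established line from a human monocytic leukaemia, and mRNA was enriched with oligo(dT) beads before sequencing. The PTX4-OE cells had been stably transduced with a construct that overexpresses PTX4, and the EV cells with the empty vector, so both groups carry a vector. Each group had 3 biological replicates, numbered 1 to 3 in the labels, and all were given the same batch. Growth medium was the same for both groups, and no other agent is named. The promoter of the construct, and whether either line was 1 clone or a mixed population, are not stated in the labels. PTX4 encodes pentraxin 4, a member of the pentraxin family of secreted pattern recognition proteins.

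Proteins bound for secretion enter the ER through the SEC61 channel, are cleaved and glycosylated on the way in, fold with the help of chaperones and disulfide isomerases, and leave in COPII-coated vesicles. Those that fail to fold are returned to the cytosol and degraded. When unfolded proteins accumulate, the sensors IRE1 (the product of ERN1), PERK (the product of EIF2AK3) and ATF6 start the unfolded protein response, which raises transcription of chaperone and degradation genes through ATF6, spliced XBP1 and ATF4.

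A known feature of that response is the ER stress response element, ERSE, a promoter element that ATF6 and XBP1 bind together with NF-Y. The promoters show which members carry the element through which the response is known to reach them. RefSeq promoter windows (GRCh38.p14, 250 bases before to 50 bases after a start) matched 36 of the 42 members, and both strands were searched. The letters searched for ERSE were CCAAT, 9 bases of any kind and CCACG, and they were found in 8 of these 36 members (22.2%). Among all genes tested, 16 of 11606 with an entry (0.138%) held it, and 0 of 134 other ER genes did. The members were chosen as genes of ER folding and this response, so their larger share is not a test of the element. The 9 elements found, each read 5′ to 3′ along its own strand and with the fixed letters of the motif in capitals, were:
CALR (chr19:12938384-12938402, minus strand): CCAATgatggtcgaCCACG
CANX (chr5:179698778-179698796, plus strand): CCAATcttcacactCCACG
CRELD2 (chr22:49918554-49918572, minus strand): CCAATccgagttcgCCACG
ERO1B (chr1:236282183-236282201, plus strand): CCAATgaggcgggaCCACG
HSP90B1 (chr12:103930216-103930234, plus strand): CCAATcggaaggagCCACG
HSP90B1 (chr12:103930321-103930339, minus strand): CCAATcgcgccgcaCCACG
HSPA5 (chr9:125241391-125241409, minus strand): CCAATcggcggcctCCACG
PDIA6 (chr2:10812853-10812871, minus strand): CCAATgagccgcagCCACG
XBP1 (chr22:28800603-28800621, minus strand): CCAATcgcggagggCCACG

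The related element ERSE-II, searched on both strands as ATTGG, any 1 base and CCACG, was present in 3 of 36 members (8.33%) and in 15 of 11606 genes tested (0.129%). Of 134 other ER genes, 1 held it (0.746%). HERPUD1 and SDF2L1 held 1 such element each and HYOU1 held 2. A core of the XBP1 site, TGACGTG, was found in 2 of 36 members (5.56%), SEC61A1 and HYOU1, and in 3.23% of genes tested. Its share was larger among the other ER genes, at 19 of 134 (14.2%). The copy in HYOU1 overlapped one of its ERSE-II elements. TTGCATCA, a C/EBP-ATF element, was found among the members in HERPUD1 only (2.78%), against 0.724% of genes tested and 0.746% of other ER genes. A whole window is shown for each element, because HSPA5 and HERPUD1 are standard readouts of the response, with the fixed letters of ERSE in HSPA5 and of ERSE-II in HERPUD1 in capitals:
HSPA5 (chr9:125241294-125241593, minus strand): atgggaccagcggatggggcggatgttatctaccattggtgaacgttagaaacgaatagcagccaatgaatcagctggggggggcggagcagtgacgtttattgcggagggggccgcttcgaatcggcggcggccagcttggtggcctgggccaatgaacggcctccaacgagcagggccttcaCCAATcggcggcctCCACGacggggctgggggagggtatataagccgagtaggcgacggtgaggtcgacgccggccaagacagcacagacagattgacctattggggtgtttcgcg
HERPUD1 (chr16:56931892-56932191, plus strand): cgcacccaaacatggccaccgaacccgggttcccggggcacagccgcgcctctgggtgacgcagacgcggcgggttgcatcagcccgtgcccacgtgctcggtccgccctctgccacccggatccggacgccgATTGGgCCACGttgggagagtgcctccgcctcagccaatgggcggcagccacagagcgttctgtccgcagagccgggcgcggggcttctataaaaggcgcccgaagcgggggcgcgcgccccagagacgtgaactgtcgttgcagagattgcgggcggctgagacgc
A match is a description of letters in a window, not a measured binding site, and members without a match may use other sequences.

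PTX4 itself separated the groups. Its level was 702, 475 and 444 TPM (transcript abundance scaled for gene length and library size) in PTX4-OE replicates 1 to 3, against 0, 0.11 and 0.13 TPM in EV replicates 1 to 3. Summed over each group and divided by library size, its counts gave a ratio of 7017 (exact 95% binomial interval 3405 to 17453, for counting error only). PTX4 was the 1 gene called higher in PTX4-OE without blocks (quasi-likelihood F test of edgeR with Benjamini-Hochberg adjustment, adjusted p = 4.419e-04), and 0 genes were called lower. Library totals ran from 29670641 to 37718207 expected counts. A list of myeloid markers summed to 2133 to 2598 TPM in PTX4-OE libraries and 2046 to 2475 TPM in EV libraries. Most of each sum was ELANE, with means of 1682 TPM in PTX4-OE and 1592 TPM in EV. CD14 averaged only 1.43 TPM in PTX4-OE and 1.38 TPM in EV. With blocks, MPO and CSF1R of that list were called lower in PTX4-OE (log2 fold changes -0.54 and -0.30, edgeR adjusted p = 0.0080 and 0.039). Lists of T cell, B cell, erythroid, epithelial and fibroblast markers summed to at most 5.2 TPM each in any library, and CD3E, MS4A1, HBB, EPCAM and DCN were listed at 0 in all 6. Mitochondrial genes took 2.79%, 5.39% and 4.97% of counts in PTX4-OE replicates 1 to 3, against 4.75%, 5.91% and 5.51% in EV replicates 1 to 3. The share was lower in PTX4-OE in every pair and lowest in PTX4-OE replicate 1. All 13 mitochondrially encoded mRNAs had negative log2 fold changes in both fits (median -0.32 with blocks), 9 were lower in all 3 pairs, and MT-ND1 alone was called lower with blocks (-0.52, edgeR adjusted p = 0.039).

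No RNA change of the machinery that handles secreted proteins was detected with PTX4 overexpression. Of the 41 members tested, 0 were called higher and 0 lower in PTX4-OE (edgeR, adjusted p under 0.05). The background was 0.00567% of 17625 genes called higher and 0% called lower. At an unadjusted p under 0.05 the count of members was also 0, against 0.238% of all genes on the higher side and 0.505% on the lower side, and DESeq2 and limma-voom called 0. A second fit took replicate number as a block, so that PTX4-OE 1 was set against EV 1 and so on, and there too 0 members passed, against 0.0284% of genes called higher and 0.238% called lower. In that fit 4 members, all higher, had an unadjusted p under 0.05 (9.76%, against 4.36% of all genes on the higher side and 4.43% on the lower side). These were SELENOS, DNAJB9, STT3A and ERN1. Bulk RNA cannot tell fewer cells expressing a gene from less RNA per cell.

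The fitted differences were small. The median log2 fold change of the members was 0.023 without blocks and 0.013 with them, against 0.0077 and 0.0053 over all genes tested. Without blocks 28 of 41 members were positive (68.3%), against 53.0% of all genes. Leaving out 1 library without blocks gave member medians from -0.039 (without PTX4-OE replicate 1) to 0.071 (without PTX4-OE replicate 3). The median was also negative without EV replicate 3 (-0.036) and was positive in the other such fits. These fits set unequal replicate numbers against each other, and most members were lower in replicate 3 than in replicate 1 in both groups. Leaving out pair 1, 2 or 3 with blocks gave -0.0070, 0.043 and 0.015. With blocks, 40 of the 41 members had a 95% confidence interval inside 1.5-fold up or down, WFS1 being the exception. Without blocks 33 members did, and 39 were inside 2-fold, the other 2 being ERN1 and WFS1. The median standard error of the members was 0.144 without blocks and 0.0537 with them, against 0.200 and 0.0822 over all genes, and 40 members had 100 or more counts in every library. These errors rest on variances moderated across genes, and the spread of a gene's own 3 pairs can be wider.

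**Figure D1:**
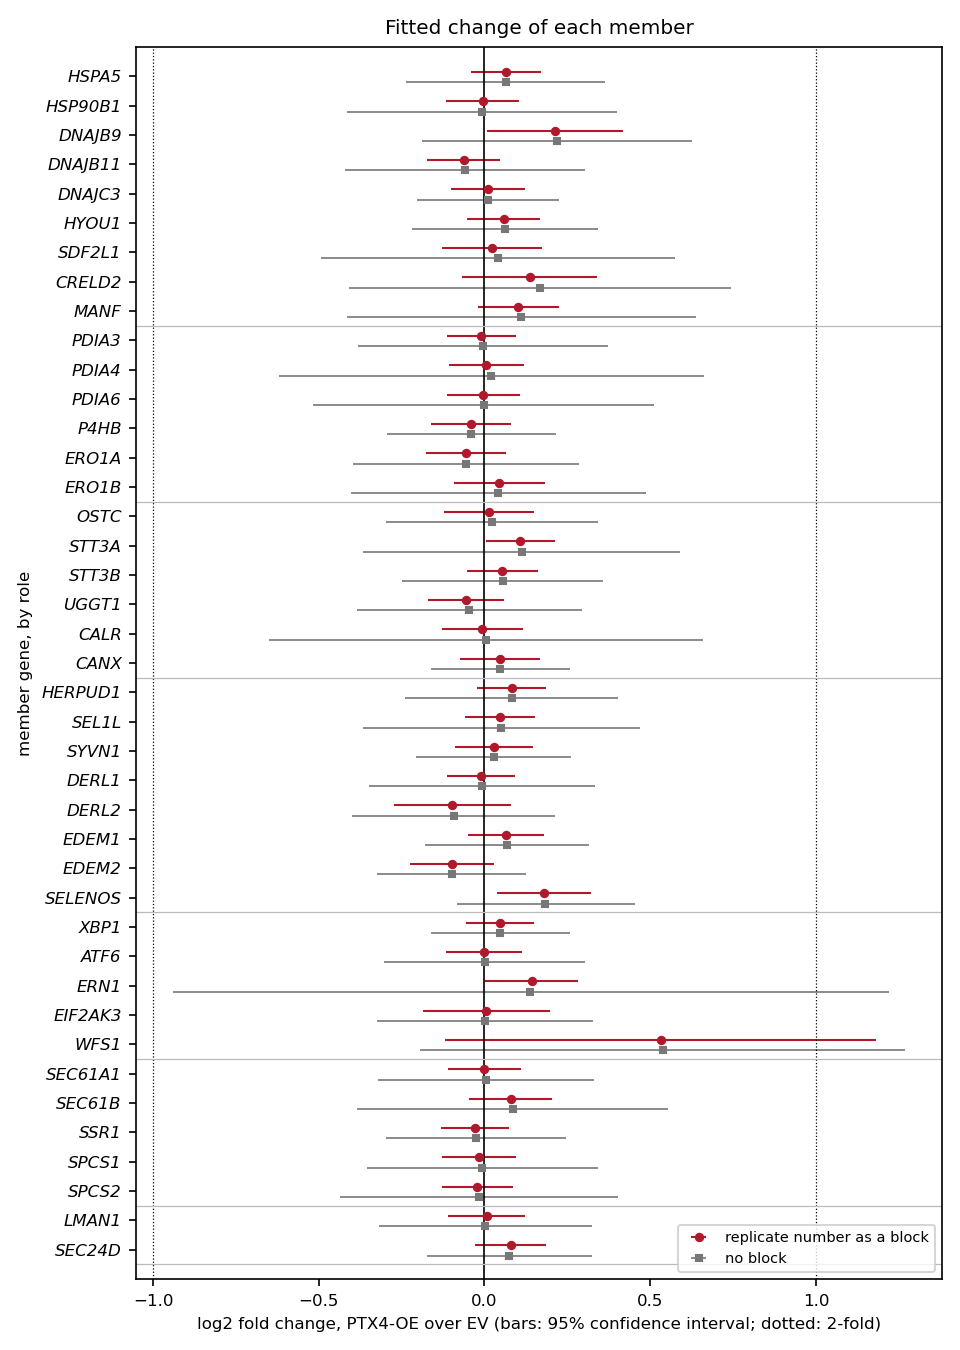
Fitted log2 fold change of each of the 41 members tested, PTX4-OE over EV, with 95% confidence intervals, from the fit with replicate number as a block (circles) and without (squares). All members except WFS1 lie between -0.099 and 0.22, and the intervals with blocks are narrower for most members.

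Levels were read from the deposited TPM, which is scaled for gene length. The 42 members summed to 4786, 4106 and 3906 TPM in PTX4-OE replicates 1 to 3, against 4466, 4082 and 3795 TPM in EV replicates 1 to 3. The groups overlapped, and in both the sum was highest in replicate 1 and lowest in replicate 3. Within each pair the sum was higher in PTX4-OE, as was that of 156 other ER genes of the pathway, and 3 pairs allow an exact two-sided permutation p no smaller than 0.25. On the TPM scale 65.3% of all genes at a mean of 1 TPM or more were also higher in PTX4-OE. P4HB had the highest mean over the 6 libraries (776 TPM), followed by CALR (479), CANX (319) and HSP90B1 (222), and 12 members exceeded 100 TPM. At the low end 7 members were under 10 TPM, among them the sensor genes ERN1 (6.24) and EIF2AK3 (3.78). WFS1 was at 0.47 TPM and DERL3 at 0.235 TPM. By its mean, PTX4 lay between P4HB and CALR in PTX4-OE cells, with 540 ± 141 TPM (SD, n = 3), against 0.080 ± 0.070 TPM in EV cells (SD, n = 3). In PTX4-OE replicate 2 PTX4 was below CALR, at 475 against 483 TPM.

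The following values per library are counts scaled to library size after TMM normalisation (normalised CPM), the scale of the tests, always for replicates 1 to 3 in order. For each member, the log2 fold change is that of the fit without blocks unless stated otherwise. Its standard error (SE) without blocks comes first and the SE with blocks second. The adjusted p is that of edgeR with blocks, whose own log2 fold change can differ (CRELD2 0.17 without blocks and 0.14 with them). Without blocks the edgeR adjusted p was 0.9999 for every member tested.

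Among the 9 chaperones and co-chaperones, 7 had a positive and 2 a negative log2 fold change in either fit, and none passed. HSPA5 encodes BiP, the HSP70 chaperone of the ER (ENSG00000044574.9, chromosome 9, 125234853 to 125241382, minus strand, GRCh38, protein coding). It stood at 378, 334 and 307 CPM in PTX4-OE, against 356, 334 and 285 CPM in EV. The groups overlapped, and the log2 fold change was 0.064 (SE 0.13 and 0.050, edgeR adjusted p = 0.77). HSP90B1, the HSP90 of the ER, had 496, 423 and 353 CPM in PTX4-OE, against 483, 449 and 345 CPM in EV. Its log2 fold change was -0.0068 (SE 0.17 and 0.052, edgeR adjusted p = 0.98). HYOU1, which exchanges the nucleotide of BiP, was at 257, 202 and 223 CPM in PTX4-OE and 229, 201 and 223 CPM in EV, a log2 fold change of 0.062 (SE 0.12 and 0.051, edgeR adjusted p = 0.81). DNAJB9, a BiP co-chaperone also known as ERdj4, had 8.71, 8.76 and 11.8 CPM in PTX4-OE, against 7.94, 7.77 and 9.45 CPM in EV. It was higher in PTX4-OE in all 3 pairs while the groups overlapped. Its log2 fold change of 0.22 (SE 0.17 and 0.097, edgeR adjusted p = 0.55) came to 0.051 in the unblocked fit that omitted PTX4-OE replicate 3. That fit kept EV replicate 3, the highest EV library for DNAJB9.

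SDF2L1, CRELD2 and MANF varied more between replicate numbers than between groups. SDF2L1, which partners the co-chaperone DNAJB11, had 28.6, 24.5 and 16.4 CPM in PTX4-OE, against 26.2, 23.0 and 18.4 CPM in EV. Its log2 fold change was 0.041 (SE 0.23 and 0.071, edgeR adjusted p = 0.96). CRELD2, an ER-resident protein known as a sensitive marker of ER stress, had 21.6, 18.2 and 11.1 CPM in PTX4-OE, against 16.6, 15.8 and 12.9 CPM in EV. It was higher in PTX4-OE in pairs 1 and 2 (log2 differences 0.38 and 0.20) and lower in pair 3 (-0.21), for a log2 fold change of 0.17 (SE 0.24 and 0.096, edgeR adjusted p = 0.75). MANF, an ER-resident factor that is secreted under stress, had 47.1, 41.3 and 28.4 CPM in PTX4-OE, against 41.96, 38.2 and 28.0 CPM in EV, a log2 fold change of 0.11 (SE 0.22 and 0.058, edgeR adjusted p = 0.66). For all 3 genes the lowest library of each group was replicate 3. DNAJB11 and DNAJC3, both BiP co-chaperones, were at -0.060 and 0.010.

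The 6 genes of oxidative folding lay closest to 0, with log2 fold changes from -0.057 to 0.045 with blocks. Their products form and rearrange disulfide bonds. P4HB, the protein disulfide isomerase PDI, had 1408, 1194 and 1243 CPM in PTX4-OE, against 1422, 1250 and 1280 CPM in EV. It was lower in PTX4-OE in all 3 pairs by small amounts, with a log2 fold change of -0.039 (SE 0.11 and 0.057, edgeR adjusted p = 0.90). PDIA4, another isomerase, had 173, 121 and 90.5 CPM in PTX4-OE, against 157, 129 and 93.0 CPM in EV, and its log2 fold change was 0.021 (SE 0.27 and 0.053, edgeR adjusted p = 0.99). Libraries of the same number lay near each other and those of different numbers far apart. PDIA6 had 356, 289 and 225 CPM in PTX4-OE, against 338, 314 and 219 CPM in EV (log2 fold change -0.0030, SE 0.22 and 0.052, edgeR adjusted p = 0.99). ERO1A and ERO1B are the oxidases that recharge PDI. ERO1A had 64.4, 50.7 and 49.9 CPM in PTX4-OE, against 63.4, 58.2 and 49.8 CPM in EV, and a log2 fold change of -0.056 (SE 0.14 and 0.057, edgeR adjusted p = 0.84). ERO1B had 18.9, 21.7 and 26.5 CPM in PTX4-OE, against 17.7, 20.9 and 26.6 CPM in EV, and a log2 fold change of 0.041 (SE 0.19 and 0.065, edgeR adjusted p = 0.90). ERO1A was highest in replicate 1 of each group and ERO1B in replicate 3. PDIA3, the isomerase that works with calnexin and calreticulin, was at -0.0038.

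Of the 6 genes of N-glycosylation and the lectin folding cycle, none passed, and with blocks they ranged from -0.055 (UGGT1, which reglucosylates misfolded glycoproteins) to 0.11 (STT3A). CALR encodes calreticulin, a lectin chaperone that retains glycoproteins until they fold. It had 789, 611 and 415 CPM in PTX4-OE, against 725, 660 and 424 CPM in EV. In each group the highest library exceeded the lowest by far more than the groups differed, and the log2 fold change was 0.0048 (SE 0.28 and 0.057, edgeR adjusted p = 0.98). STT3A and STT3B are the catalytic subunits of oligosaccharyltransferase. STT3A, named because its unadjusted p with blocks was under 0.05, had 319, 266 and 206 CPM in PTX4-OE, against 283, 258 and 191 CPM in EV. It was higher in PTX4-OE in all 3 pairs while the groups overlapped, with a log2 fold change of 0.11 (SE 0.20 and 0.049, edgeR adjusted p = 0.55). The membrane-bound lectin chaperone CANX was at 0.048, STT3B at 0.056 and OSTC, another subunit of the transferase, at 0.023.

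Of the 9 genes of ER-associated degradation, 8 were tested and none passed. HERPUD1, a scaffold of the retrotranslocation complex, had 80.4, 87.0 and 102 CPM in PTX4-OE, against 79.1, 78.5 and 97.3 CPM in EV. It was higher in PTX4-OE in all 3 pairs while the groups overlapped (log2 fold change 0.082, SE 0.14 and 0.049, edgeR adjusted p = 0.68). SEL1L, the adaptor of the ubiquitin ligase SYVN1, had 116, 106 and 153 CPM in PTX4-OE, against 109, 109 and 144 CPM in EV. Its log2 fold change was 0.051 (SE 0.18 and 0.049, edgeR adjusted p = 0.84). SYVN1, also called HRD1, had 40.4, 36.2 and 39.5 CPM in PTX4-OE, against 39.5, 35.3 and 39.2 CPM in EV, a log2 fold change of 0.028 (SE 0.099 and 0.055, edgeR adjusted p = 0.93). EDEM1, which marks misfolded glycoproteins for disposal, had 409, 434 and 490 CPM in PTX4-OE, against 400, 438 and 434 CPM in EV, a log2 fold change of 0.068 (SE 0.10 and 0.054, edgeR adjusted p = 0.79). SELENOS, a selenoprotein that anchors the segregase VCP at the ER membrane, had the smallest adjusted p of the members with blocks. It stood at 34.0, 29.3 and 27.6 CPM in PTX4-OE, against 27.6, 25.2 and 27.2 CPM in EV. SELENOS was higher in PTX4-OE in all 3 pairs by log2 differences of 0.30, 0.22 and 0.020, and its log2 fold change was 0.18 (SE 0.11 and 0.066, edgeR adjusted p = 0.41). EDEM2 and DERL2 had the lowest log2 fold changes among the members, -0.099 and -0.093, and both were lower in PTX4-OE in all 3 pairs. DERL1 was at -0.0083. DERL3, a derlin of secretory tissues, had 7, 3 and 4 counts in PTX4-OE and 6, 6 and 5 in EV, and was too low to test.

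The sensors and regulators held the widest spread. XBP1, whose mRNA IRE1 splices, had 241, 249 and 225 CPM in PTX4-OE, against 229, 234 and 228 CPM in EV, and its log2 fold change was 0.048 (SE 0.089 and 0.049, edgeR adjusted p = 0.85). Counts per gene do not separate spliced from unspliced XBP1. ATF6 had 45.5, 40.3 and 51.6 CPM in PTX4-OE, against 44.6, 42.1 and 50.8 CPM in EV (log2 fold change 6.8e-04, SE 0.13 and 0.054). EIF2AK3 had 12.8, 11.9 and 12.8 CPM in PTX4-OE, against 11.5, 11.4 and 14.6 CPM in EV, a log2 fold change of 0.0013 (SE 0.14 and 0.090, edgeR adjusted p = 0.99). For both genes the groups overlapped, and edgeR gave ATF6 an adjusted p of 0.9975 with blocks. ERN1 had 20.6, 30.8 and 55.6 CPM in PTX4-OE, against 20.3, 24.6 and 52.3 CPM in EV. Replicate 3 of each group stood far above the others, while the groups differed by a log2 fold change of 0.14 (SE 0.46 and 0.066, edgeR adjusted p = 0.56). ERN1 was higher in PTX4-OE in all 3 pairs (log2 differences 0.022, 0.32 and 0.089). The fit without blocks that left out PTX4-OE replicate 3 gave -0.34. It kept the high EV replicate 3, so it set unequal replicate numbers against each other and does not show the direction between groups. WFS1 encodes wolframin, an ER membrane protein. It had 1.73, 1.16 and 1.203 CPM in PTX4-OE, against 0.696, 1.02 and 1.09 CPM in EV, from 22 to 62 counts per library. WFS1 was the 1 member whose groups did not overlap, all PTX4-OE libraries being higher, where 2.08% of all genes tested had that pattern and 2.05% the opposite one. Its log2 fold change was 0.54 (SE 0.31 and 0.31, edgeR adjusted p = 0.66) and 0.16 with blocks when pair 1 was left out, and in deposited TPM the groups overlapped.

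**Figure D2:**
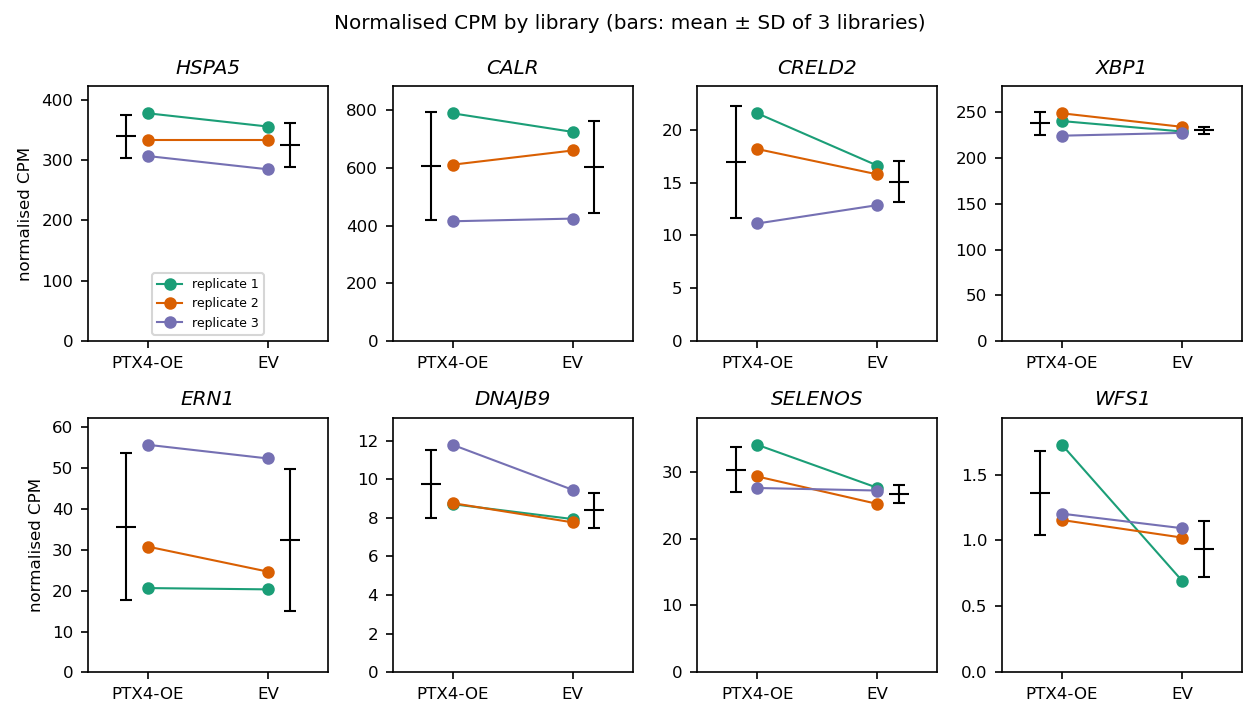
Normalised CPM of 8 members in each library, with PTX4-OE at the left and EV at the right of each panel, lines joining libraries of the same replicate number, and bars showing mean ± SD of 3 libraries. For CALR and ERN1 the lines lie far apart and change little between the groups, so libraries differ by replicate number more than by group; WFS1 differs mainly in replicate 1.

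None of the 5 translocation genes or 2 export genes passed the test. SEC61A1 and SEC61B encode subunits of the channel through which nascent proteins enter the ER. SEC61A1 had 287, 241 and 214 CPM in PTX4-OE, against 266, 253 and 220 CPM in EV (log2 fold change 0.0044, SE 0.14 and 0.052). Its edgeR adjusted p was 0.9963 with blocks, and the groups overlapped. SEC61B had 42.3, 34.6 and 27.0 CPM in PTX4-OE, against 38.1, 33.3 and 26.6 CPM in EV, a log2 fold change of 0.085 (SE 0.20 and 0.059, edgeR adjusted p = 0.76). SSR1, a subunit of the translocon-associated complex, had 118, 105 and 95.5 CPM in PTX4-OE, against 114, 111 and 99.4 CPM in EV, a log2 fold change of -0.026 (SE 0.12 and 0.049, edgeR adjusted p = 0.92). The signal peptidase subunits SPCS1 and SPCS2 were at -0.0072 and -0.017. LMAN1, a cargo receptor for glycoproteins leaving the ER, had 264, 231 and 216 CPM in PTX4-OE, against 257, 254 and 199 CPM in EV. For LMAN1 the log2 fold change was 0.0018 (SE 0.14 and 0.054, edgeR adjusted p = 0.98). SEC24D, a cargo-binding subunit of the COPII coat, had 105, 97.5 and 96.9 CPM in PTX4-OE, against 104, 95.6 and 85.4 CPM in EV, a log2 fold change of 0.075 (SE 0.11 and 0.050, edgeR adjusted p = 0.71). Both export genes had overlapping groups.

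The members differed between the pairs. In pair 1, 36 of 41 members were higher in PTX4-OE (87.8%, against 54.7% of all genes tested), with a median log2 difference of 0.072, against 0.021 over all genes. In pair 2, 18 members were higher (43.9%, against 48.9%), with a median of -0.012. In pair 3, 21 members were higher (51.2%, against 49.9%), with a median of 0.0040. All 3 pairs were higher in PTX4-OE for 10 members (24.4%, against 16.4% of all genes) and lower for 4 (9.76%, against 14.2%). Pair 1 holds the PTX4-OE library with the highest PTX4 level and the low mitochondrial share. Without that pair the median with blocks was -0.0070, and with mitochondrial genes left out before scaling the median over all 6 libraries was 0.019 without blocks. The part of the mitochondrial share in the pair 1 difference was not tested.

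Between replicate numbers the members differed more than between groups, most of all between replicates 3 and 1. Between replicates 3 and 1 the median absolute log2 difference of the members was 0.414 in PTX4-OE and 0.321 in EV, against 0.047 between the group means. Over all genes tested these values were 0.405, 0.354 and 0.079. Between replicates 2 and 1 the members' median was 0.216 in PTX4-OE and 0.115 in EV. Between replicates 3 and 2 the members' median was 0.172 in PTX4-OE and 0.226 in EV. Differences between single libraries carry more noise than differences between group means. The difference between replicates 3 and 1, averaged over both groups, exceeded that between the group means for 38 of 41 members (92.7%, against 84.3% of all genes). Of the 41 members, 31 were lower in replicate 3 than in replicate 1 in both groups and 9 were higher in both, while WFS1 alone differed in direction. Like directions were found for 84.1% of all genes. The labels do not say what a replicate number stands for, and a number's 2 libraries are not further replicated, so no test of these differences is given.

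The members furthest below replicate 1 in replicate 3, and all that were higher there in both groups, are given here by gene. CALR stood at 0.526 times its replicate 1 level in PTX4-OE and 0.585 times in EV, and PDIA4 at 0.525 and 0.593 times. CRELD2, SDF2L1, MANF and PDIA6 were lower by log2 differences averaged over both groups of -0.66, -0.66, -0.66 and -0.64. These are chaperone and isomerase genes, but STT3A (-0.60) and SEC61B (-0.58), of glycosylation and translocation, were close behind. ERN1 stood at 2.69 times its replicate 1 level in PTX4-OE and 2.57 times in EV. The degradation genes SEL1L, HERPUD1 and EDEM1 were higher in replicate 3 too, by mean log2 differences of 0.40, 0.32 and 0.19. The other 5 tested degradation genes were lower there in both groups, from -0.38 (DERL1) to -0.021 (SYVN1). ERO1B (0.53), DNAJB9 (0.34), ATF6 (0.18), EIF2AK3 (0.17) and the co-chaperone gene DNAJC3 (0.061) were higher. For EIF2AK3 the log2 difference in PTX4-OE was only 0.0006. All 5 translocation genes were lower in replicate 3 in both groups.

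**Figure D3:**
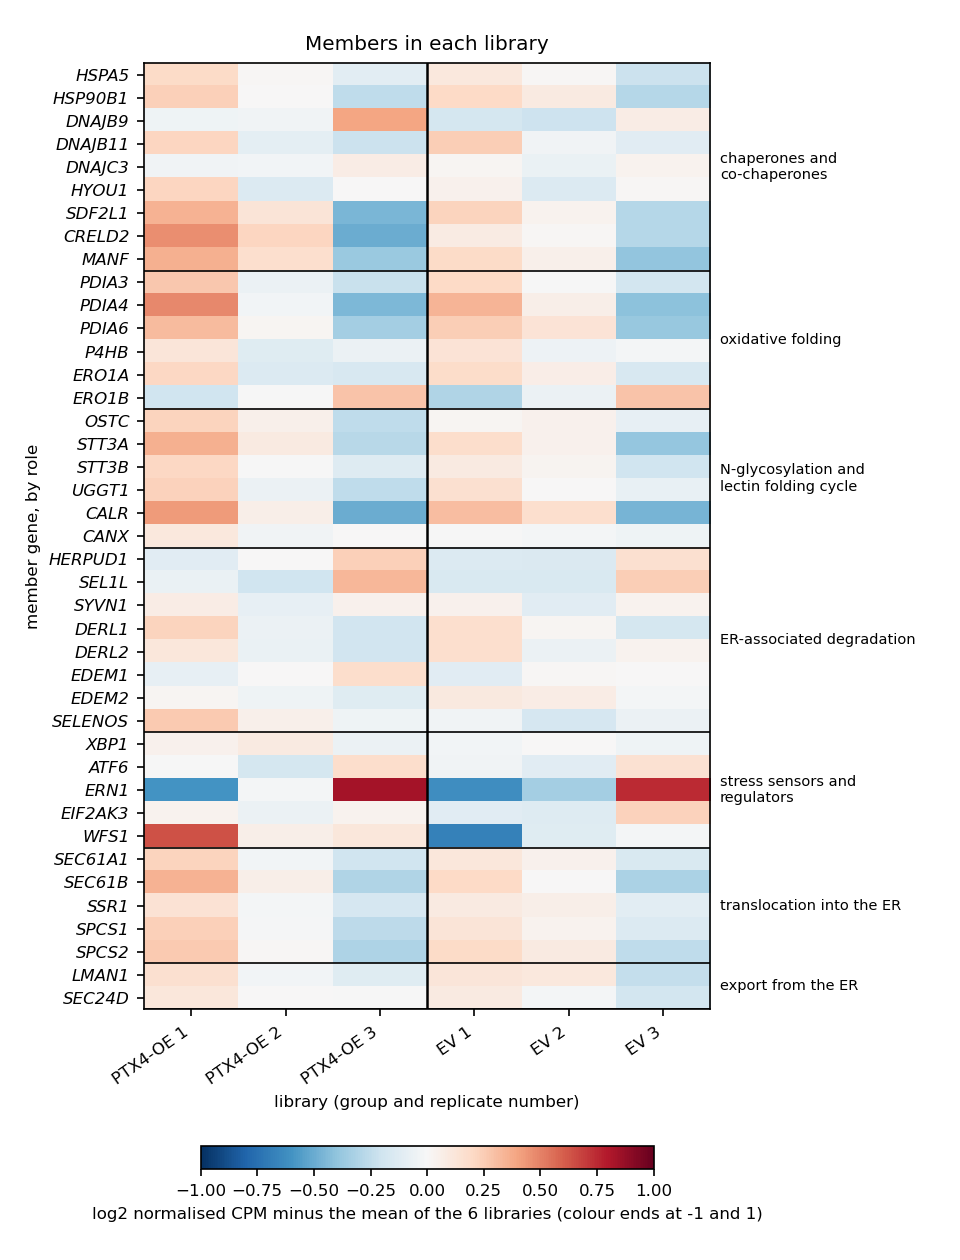
Each of the 41 members tested, by role, in each library, as log2 normalised CPM minus the gene's mean over the 6 libraries. The 3 PTX4-OE columns and the 3 EV columns show nearly the same order of colours: most chaperone, isomerase and translocation genes are lowest in replicate 3, and ERN1, SEL1L and ERO1B are highest there.

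**Figure D4:**
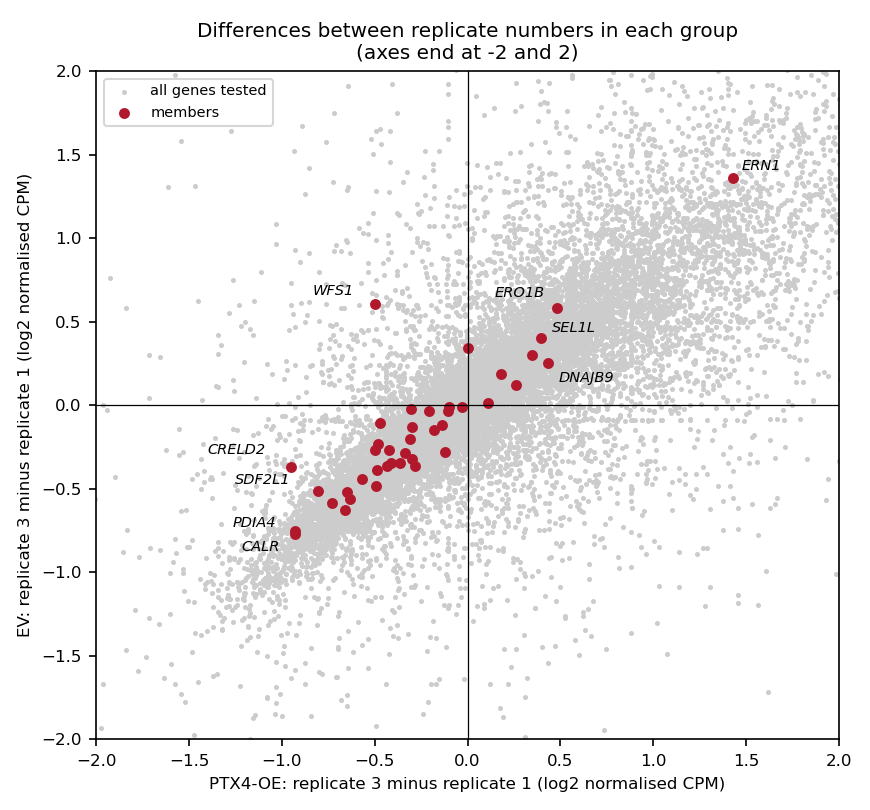
Difference between replicates 3 and 1 in PTX4-OE (horizontal axis) and in EV (vertical axis), in log2 normalised CPM, for the genes tested (grey, those beyond the ends of the axes not drawn) and the 41 members (red). All members except WFS1 lie in the lower left or upper right, with ERN1 highest and CALR and PDIA4 lowest.

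The 8 members with an ERSE in the windows above did not separate from the rest by group. Their log2 fold changes with blocks ran from -0.0066 (CALR) to 0.14 (CRELD2), with a median of 0.046, against 0.012 for the 28 tested members with a window and no ERSE. Between replicates 3 and 1 their median was -0.395 in PTX4-OE and -0.345 in EV, against -0.302 and -0.123 for those without, and 7 of the 8 were lower in replicate 3 in both groups, as were 19 of the 28 without. ERO1B was the exception. These are descriptions of 8 genes and carry no test. The 28 members without ERSE included HERPUD1, HYOU1 and SDF2L1, which held the related ERSE-II.

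Of 156 other genes of ER folding, glycosylation, translocation, degradation, export and stress signalling, 151 were tested, and 0 were called in either direction by edgeR with or without blocks. Their median log2 fold change was 0.014 without blocks and 0.012 with them. At an unadjusted p under 0.05, 0 were found without blocks, and 10 higher (6.62%) and 2 lower (1.32%) with them, against 4.36% and 4.43% of all genes. By role, the median with blocks was highest for the stress sensors and regulators (0.055, 15 tested, 11 positive) and lowest for degradation genes (-0.020, 27 tested, 11 positive). Of the 15 stress genes, 4 were higher (26.7%) and 0 lower at an unadjusted edgeR p under 0.05 with blocks. In all 3 pairs 6 were higher in PTX4-OE (40%, against 16.4% of all genes) and 1 lower (6.67%, against 14.2%). The stress list includes genes of the integrated stress response such as ATF4, DDIT3 and TRIB3.

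The 6 genes below were named by the size of their change among those at 1 TPM or more. BBC3, a pro-apoptotic BCL2 family gene, had a log2 fold change with blocks of 0.25 (SE 0.10, edgeR adjusted p = 0.49). FKBP2, a prolyl isomerase of the ER, was at 0.21 (SE 0.10, edgeR adjusted p = 0.60). TRIB3, a pseudokinase induced by ATF4, was at 0.17 (SE 0.056, edgeR adjusted p = 0.32) and averaged 479 TPM in PTX4-OE, against 418 TPM in EV. KDELR3, a receptor that returns ER residents from the Golgi, was at -0.30 (SE 0.21, edgeR adjusted p = 0.75). FKBP7, another prolyl isomerase, was at -0.20 (SE 0.13, edgeR adjusted p = 0.72). TRIM13, an ER-anchored ubiquitin ligase, was at -0.21 (SE 0.057, edgeR adjusted p = 0.21), the smallest adjusted p of the list. TRIM13 and FKBP7 were lower in PTX4-OE in all 3 pairs, and BBC3 and TRIB3 were higher in all 3. FKBP2 and KDELR3 differed in direction between pairs. None of these values passed the test.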

How the data were processed

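Expected counts per gene were made by the authors with STAR and featureCounts on GRCh38 after FastQC 0.11.5, per the submitters' processing notes, and deposited without normalization. Settings, annotation release, strandedness and the step that left 7.94% of values fractional are not given in the sources used here. Genes sharing reads with near-identical copies are therefore uncertain. The deposited TPM sums to the same total in every library. Deposited FPKM was not used.

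Symbols came from Ensembl identifiers, positions from GENCODE 44, and 38 pairs listed at X and Y were summed. Python 3.11.15, pandas 2.3.3 and matplotlib 3.10.9 were used. Expected counts, rounded to whole numbers, were tested with edgeR 4.0.16 in R 4.3.3 (filterByExpr, TMM, quasi-likelihood F test, Benjamini-Hochberg over 17625 genes, adjusted p under 0.05), and checked on simulated data. Alternatives used DESeq2 1.42.0, limma 3.58.1, other filters and scalings, and left-out libraries. Standard errors came from the fold change and its F statistic. Without blocks, p-values set the group difference against the spread between the 3 replicates of each group. With blocks, they set it against the spread of that difference over the 3 pairs. No pair of libraries agreed within sampling noise (smallest chi-square per degree of freedom 6.54).

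The fit set first had no block. Same-numbered libraries deviated together from their group means (correlations 0.632, 0.130 and 0.699 for numbers 1, 2 and 3), and every one exceeded 0.1, so the numbers were taken to pair the libraries, although the labels do not say what they share. EV replicate 2 with PTX4-OE replicate 1 also exceeded it, at 0.117.

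The members, gene lists, motifs and named genes were chosen with earlier results of these data known. Values in every library are given for 28 members set by name (chaperones, isomerases, lectins, degradation genes, sensors and transport genes) and for any member past the threshold. Other ER genes were named if past the threshold or among the 3 highest or 3 lowest log2 fold changes with blocks at a mean of 1 TPM or more.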

Additional observations from a re-analysis of the deposited data

How the results depend on the processing

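Under all 22 alternatives 0 members were called higher or lower, and the smallest adjusted p of a member was 0.126 (SELENOS, with the replicate block and without replicate 3). The replicate block changed no call of a member, but moved the genes called over the whole table to 5 higher and 42 lower, also with DESeq2 size factors (5 and 42) and, without mitochondrial genes, 5 and 41. With the block they were 106 and 190 with no filter, 6 and 32 by DESeq2, and 2 higher on log2(TPM + 1). Without it, limma-voom called 0 higher, limma on log2(TPM + 1) 2 higher, DESeq2 2 lower and the fit with no filter 1 lower. Leaving out 1 library or pair gave 1 to 41 genes higher and 0 to 167 lower (with the block 30, 8 and 41 higher and 58, 18 and 167 lower without replicates 1, 2 and 3), member medians of -0.0389 to 0.0712 and other ER gene medians of -0.0697 to 0.0666. PTX4 was at 13.0 by limma-voom with an adjusted p of 0.0566. The cause of these shifts was not tested. On log2(TPM + 1) 35 of 40 members were positive, against 65.3% of all genes, and the median of all genes was 0.037. In deposited TPM of 1 or more, a comparison added after seeing the data, the groups of 3 members did not overlap (SELENOS and XBP1 higher, EDEM2 lower in PTX4-OE), against 2.98% of genes higher and 1.11% lower.

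With 3 libraries a group, differences smaller than the intervals given could not be detected. Counts per gene do not directly measure protein load, XBP1 splicing or sensor activity.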
